A study of Rattus norvegicus with 14 samples.

Results

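The stathmins, the collapsin response mediator proteins (CRMPs) and Gap43 were followed in hippocampal CA3 through 12 probe sets of 10 genes, out of 15923 probe sets and 10411 genes named on the array. The members were Stmn1, Stmn2, Stmn3, Stmn4, Crmp1, Dpysl2, Dpysl3, Dpysl4, Dpysl5 and Gap43, and every probe set was taken whose array annotation names 1 of these genes and no other. Stmn2 and Gap43 had 2 probe sets each and the other genes 1 each. Arrays of 7 animals of the learning activated group were compared with arrays of 7 control animals, 1 array per animal. All were male Long-Evans rats of 3 to 4 months that had been trained in a standard water maze and were put 2 to 3 weeks later into an unfamiliar maze for 8 trials, 8 min apart. For the learning group that maze offered orienting cues, and its visible platform was kept in 1 position. For the control group the visible platform was moved about and the surroundings gave no informative cues. A 90 s trial without a platform followed after 1 h, and CA3 was dissected directly afterwards. The comparison asks which CA3 transcripts differ after rapid encoding of a new place. Cues and platform movement differed together, so their effects cannot be told apart.

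Stathmins bind tubulin dimers and favour the disassembly of microtubules, and phosphorylation weakens that binding. CRMPs also bind tubulin, and they carry the signal by which semaphorins collapse the growth cone, the motile tip of an axon, with kinases such as Cdk5 and Gsk3b acting on them. Gap43 is a membrane protein of the growth cone and of axon terminals that binds calmodulin and is a substrate of protein kinase C. In the adult rodent hippocampus these proteins are known from sprouting and synaptic remodelling, and several of them also mark young neurons of the dentate gyrus next to CA3.

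No member changed past the threshold. Of the 11 member probe sets tested with limma, 0 reached an adjusted p under 0.05, where 3.35% of all 9520 tested probe sets did, 2.55% higher and 0.798% lower in the learning group. With so few members a count of 0 lies near that background. At an unadjusted p under 0.05 there was 1 member, Stmn4, against 19.9% of all tested probe sets. The log2 fold change, learning minus control, was above 0 in 5 member probe sets and below 0 in 6. Its median was -0.0010 over the members and -0.017 over all tested probe sets, and the median size without regard to sign was 0.07 over the members and 0.06 over all. The learning and control values overlapped at each of the 11, while the groups did not overlap at 2.1% of all tested probe sets. Dissected tissue was measured in bulk, so fewer cells of a type and less RNA per cell cannot be told apart for any gene below.

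The 95% intervals of the fold changes show how large a difference these arrays leave possible. For 9 of the 11 tested probe sets the interval lay within a 1.25-fold difference in either direction, and the 2 with wider intervals were those of Dpysl4 and Dpysl5, both close to the dim cutoff. That cutoff was a mean log2 level of 3.88, the 40th percentile of all probe sets, and levels near it are not shown to be above background. A narrow interval at a dim probe set bounds the deposited value and not the transcript, since the background correction compresses dim values.

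**Figure D1:**
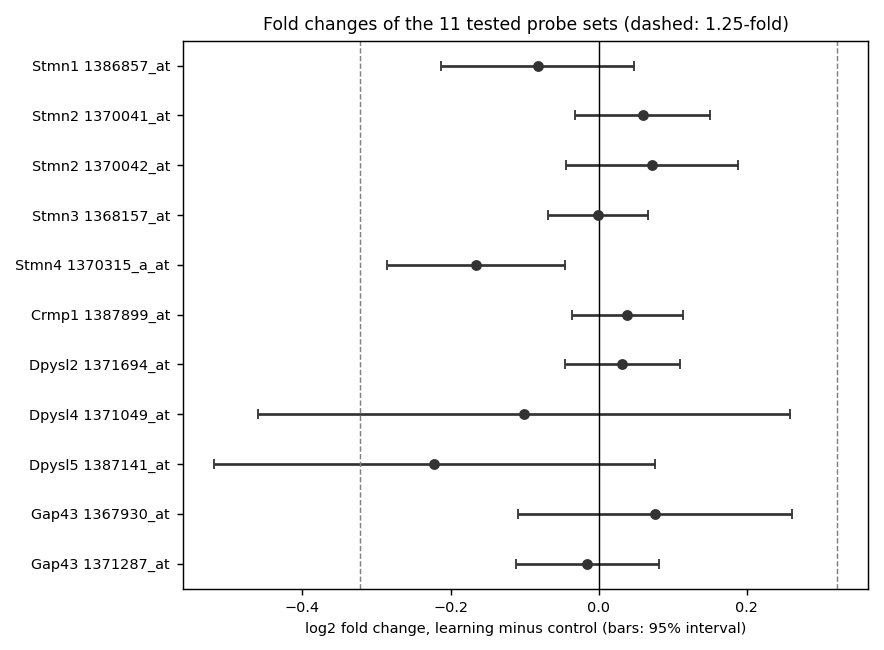
Log2 fold change, learning minus control, of the 11 tested member probe sets (points) with 95% limma intervals (bars). Dashed lines mark a 1.25-fold difference. The interval of Stmn4 lies below 0, those of Dpysl4 and Dpysl5 cross the lower dashed line, and the other 8 hold 0 between the dashed lines.

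Arrays resembled each other closely, with correlations of 0.983 to 0.995 between any 2 of them over the tested probe sets and no identical columns. Control replicate 5 and learning replicates 4 and 6 had the lowest mean correlations with the other arrays (0.988 to 0.991). Control replicate 5 also had the highest ratio of 3' to 5' control signal for Gapdh, hexokinase and beta-actin, a measure of RNA integrity. No member was called with these 3 arrays left out, with any single array left out, or in the other fits tried, and the lowest adjusted p of any member in any of them was 0.0772, for Stmn4 without control replicate 6. By their mean over all arrays the 6 measured CA3 pyramidal markers lay above the dim cutoff. The brightest were Chgb (11.58 ± 0.08 in learning and 11.50 ± 0.09 in control arrays, log2, SD, n = 7 each) and Bok (8.85 ± 0.15 in learning and 8.84 ± 0.13 in control arrays). Prss35 varied widely (5.45 ± 2.37 in learning and 6.45 ± 1.96 in control arrays). Its learning median of 3.87 lay just below the cutoff, and its control median was 7.21. By the same mean all 7 measured markers of the neighbouring CA1 field and 3 of 6 of dentate granule neurons also lay above the cutoff.

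Among the stathmins, Stmn4 (RB3), a neuronal family member attached to membranes, came closest to a difference. At probe set 1370315_a_at its log2 level ran from 8.77 to 8.99 with a median of 8.93 in learning arrays, and from 8.94 to 9.28 with a median of 9.03 in control arrays. All 7 learning animals lay below the control median, though the groups overlapped, and control replicates 1 and 5 were the highest of the 14. The means were 8.91 ± 0.07 in learning and 9.08 ± 0.13 in control arrays (SD, n = 7 each), or -0.17 as a log2 fold change (SE 0.06), 0.891-fold with a 95% interval of 0.820 to 0.969. The adjusted p in limma was 0.116, so the difference did not pass after adjustment over all tested probe sets. It was -0.13 without control replicate 1, -0.14 without control replicate 5 and -0.19 without control replicate 6. When the model held the per-array gap between dim and bright probe sets of the same gene, given further on, the value was -0.07 (adjusted p = 0.831).

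Stmn1, the cytosolic founding member, ran from 10.75 to 11.16 with a median of 10.98 in learning arrays and from 10.98 to 11.24 with a median of 11.01 in control arrays. Learning replicate 6 was the lowest of all and control replicate 1 the highest, and 4 of 7 learning animals lay below the control median. The log2 fold change was -0.08 (SE 0.06, adjusted p = 0.484), with a fold interval of 0.863 to 1.03. It was -0.04 without learning replicate 6, -0.05 without control replicate 1 and -0.016 without the 3 arrays that stood apart.

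Stmn2 (SCG10), a palmitoylated stathmin carried into growing axons, had a pair of bright probe sets. At 1370041_at it ran from 11.10 to 11.26 (median 11.22) in learning arrays and from 11.02 to 11.28 (median 11.14) in control arrays. At 1370042_at it ran from 10.37 to 10.64 (median 10.44) in learning arrays and from 10.27 to 10.57 (median 10.39) in control arrays. Both sets of values overlapped almost completely between the groups, with log2 fold changes of 0.06 (SE 0.04, adjusted p = 0.469) and 0.07 (SE 0.05, adjusted p = 0.495). The second of these was 0.04 without learning replicate 4. The gap between the probe sets averaged 0.72 ± 0.13 in learning and 0.73 ± 0.10 in control arrays, a difference of -0.013 (two-sided exact permutation p = 0.842, adjusted p = 0.842 over 2 genes). For the deviations of single animals from their group mean no relation between the probe sets was found: across the 14 arrays Pearson's r was 0.19 (permutation p = 0.524, adjusted p = 0.524) and Spearman's rank correlation 0.24 (permutation p = 0.410, adjusted p = 0.410). Without the 2 arrays farthest from the median r was 0.0030.

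Stmn3 (SCLIP), another neuronal stathmin, had the smallest range over the 14 arrays among the tested members. It ran from 11.62 to 11.73 (median 11.70) in learning arrays and from 11.61 to 11.76 (median 11.70) in control arrays. The log2 fold change was -0.0010 (SE 0.03, adjusted p = 0.990), and the 95% interval ran from a decrease of 4.63% to an increase of 4.70%.

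**Figure D2:**
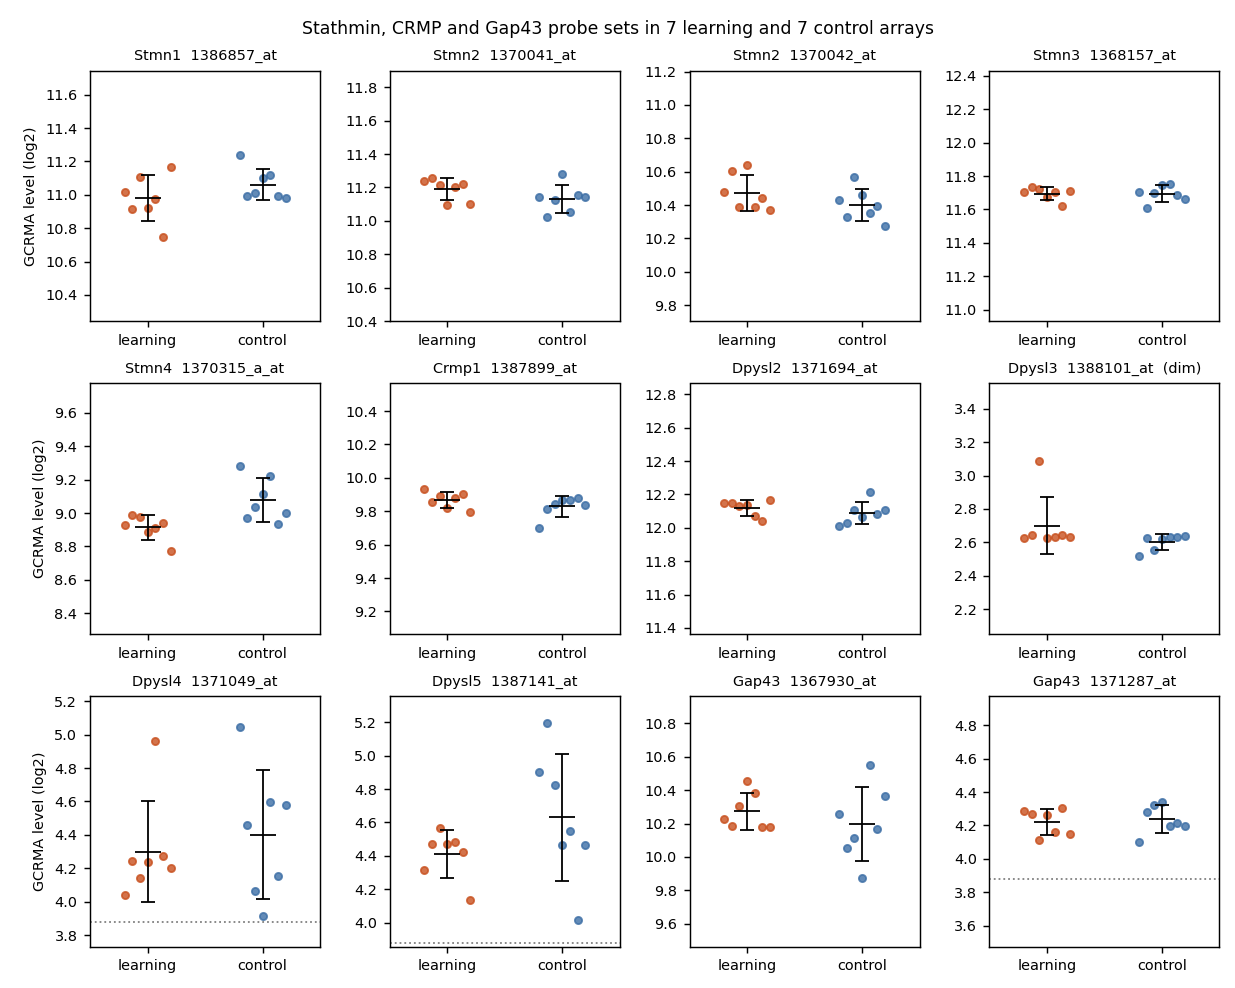
Deposited log2 level of the 12 member probe sets in each array, learning on the left (orange) and control on the right (blue), with group mean and SD (black). All panels span the same number of log2 units, so spreads can be compared, and the dotted line is the dim cutoff of 3.88. The groups overlap in every panel. Stmn4 lies lower in most learning arrays, and single high values stand out for Dpysl3 and Dpysl4 in the learning group.

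Dpysl2 (CRMP2), the family member best known for promoting axon growth, ran from 12.04 to 12.17 (median 12.13) in learning arrays and from 12.01 to 12.22 (median 12.08) in control arrays. Control replicate 5 was the highest array and control replicate 1 the lowest, so the control animals enclosed the learning animals. The log2 fold change was 0.03 (SE 0.04, adjusted p = 0.682), with a fold interval of 0.968 to 1.08. It was 0.019 without control replicate 1 and 0.05 without control replicate 5. In the model with the dim-to-bright gap it was 0.11 (adjusted p = 0.526).

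Crmp1, a mediator of the semaphorin response in neurons, ran from 9.79 to 9.93 (median 9.88) in learning arrays and from 9.70 to 9.88 (median 9.84) in control arrays. Of the learning animals 5 of 7 lay above the control median, and control replicate 1 was lower than all other arrays. The log2 fold change was 0.04 (SE 0.04, adjusted p = 0.586), with a fold interval of 0.975 to 1.08. Without control replicate 1 it was 0.017 (adjusted p = 0.825).

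The other CRMPs were dim or near the cutoff. Dpysl5 (CRMP5), found mainly in young neurons, ran from 4.13 to 4.56 (median 4.47) in learning arrays and from 4.02 to 5.19 (median 4.55) in control arrays. Its log2 fold change was -0.22 (SE 0.14, adjusted p = 0.399), and it was -0.13 without control replicate 2 (adjusted p = 0.620) and -0.12 with the dentate granule marker level in the model (adjusted p = 0.722). The control animals spread widely (SD 0.38, against 0.14 in learning animals), with replicates 1, 2 and 3 high and replicate 6 low. Dpysl4 (CRMP3) ran from 4.04 to 4.96 (median 4.24) in learning arrays and from 3.91 to 5.05 (median 4.46) in control arrays, with a log2 difference of -0.10 (SE 0.17, adjusted p = 0.791). Learning replicate 5 stood alone at the top of its group, and the difference was -0.21 without it, 0.0067 without control replicate 1 and 0.03 with the dentate granule marker level in the model.

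Dpysl3 (CRMP4), a marker of newborn granule neurons, lay below the cutoff and was not tested. It ran from 2.63 to 3.09 (median 2.63) in learning arrays and from 2.52 to 2.64 (median 2.62) in control arrays. Learning replicate 3 alone reached 3.09, and the next learning array was at 2.65. These levels lie far below the cutoff and say nothing about whether the transcript was present. Of the 8 measured markers of immature neurons 5 lay above the cutoff, and their mean level, dim ones included, ran from 4.55 to 4.82 in learning and from 4.57 to 4.76 in control arrays (difference 0.03, two-sided exact permutation p = 0.517, adjusted p = 0.655 over 10 marker lists). That mean joins opposite signs. The 2 brightest, Neurod2 and Neurod1, had log2 differences of 0.33 (adjusted p = 0.0818) and 0.20 (adjusted p = 0.2) in limma. The other tested ones lay between -0.21 (Prom1) and -0.03 (Sox4).

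Gap43 was bright at probe set 1367930_at, where it ran from 10.18 to 10.45 (median 10.23) in learning arrays and from 9.87 to 10.55 (median 10.17) in control arrays. All 7 learning animals lay above the control median, yet the control animals reached both higher and lower than the learning animals, with replicate 5 at the top and replicate 4 at the bottom. The means were 10.27 ± 0.11 in learning and 10.20 ± 0.22 in control arrays, a log2 difference of 0.08 (SE 0.09, adjusted p = 0.675) with a fold interval of 0.928 to 1.20. It was 0.05 without learning replicate 4, 0.02 without control replicate 4 and 0.14 without control replicate 5. Without control replicate 5 the gap between this probe set and the other differed by 0.16 between the groups, against 0.09 with all arrays (two-sided exact permutation p = 0.466, adjusted p = 0.842). In the model with the dim-to-bright gap the fold change was 0.26 (adjusted p = 0.546).

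The second Gap43 probe set, 1371287_at, was near the cutoff. It ran from 4.11 to 4.31 (median 4.26) in learning arrays and from 4.10 to 4.34 (median 4.22) in control arrays, with a log2 difference of -0.015 (SE 0.05, adjusted p = 0.888). Animals above their group mean at the bright probe set tended to lie below it at this one, but the relation did not pass: Pearson's r was -0.52 (permutation p = 0.0566, adjusted p = 0.113) and Spearman's rank correlation -0.53 (permutation p = 0.0581, adjusted p = 0.116) over 14 arrays, and r was -0.42 without the 2 farthest arrays.

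By a fixed measure of likeness, the mean absolute difference of levels scaled to mean 0 and SD 1 over the 14 arrays, the genes nearest to Stmn4 among 6827 were Dazap1 (0.332), Psmb7 (0.362) and Cmss1 (0.385), where the median over genes was 1.01. Their log2 fold changes were -0.12, -0.05 and -0.81, with adjusted p-values of 0.133, 0.409 and 0.0606 in limma, so none of them was called either. The measure left the group difference of Stmn4 in the levels. The sign of these fold changes thus follows largely from the choice of the genes and is no separate result.

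Some partner genes of these proteins were called, but none of them in models that held the Gapdh 3'/5' ratio or the dim-to-bright gap, array measures described further on. Of 86 genes on 3 lists (semaphorin and CRMP signalling, stathmin regulation and tubulins, and growth-cone membrane and axon growth proteins), 60 had a tested probe set, 10 had only dim ones and the rest were not analysed here. At their brightest probe sets 7 of the 60 rose and 0 fell, where 1.59% of all 6836 genes rose and 0.98% fell in the same fit. The lists were chosen with earlier results of these data known, so these shares are no independent test of the lists. At an unadjusted p under 0.05 there were 15 higher and 4 lower, where 6.33% of all 6836 genes were higher and 12.3% lower. Of the 60 genes 34 had a fold change above 0, where 36.1% of all genes did. The lists' median log2 fold change was 0.018, against -0.027 when every gene on the array was taken the same way.

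**Figure D3:**
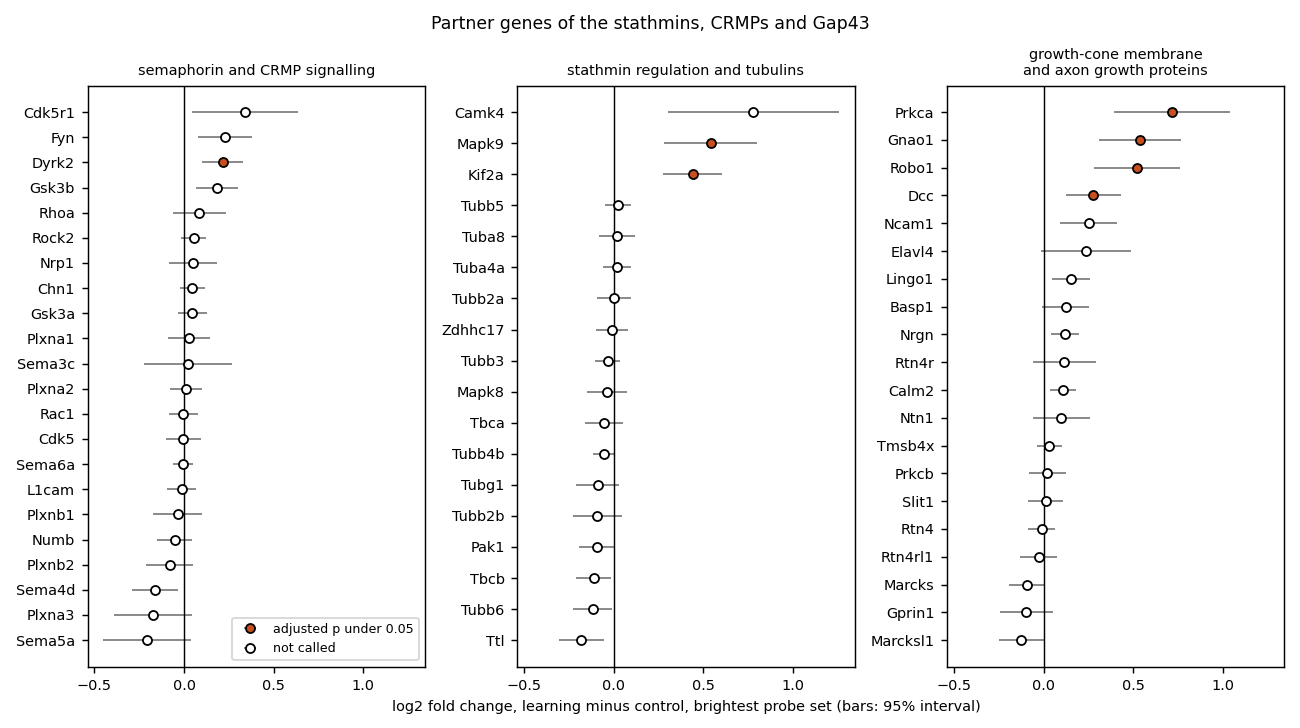
Log2 fold change, learning minus control, of the 60 tested partner genes at their brightest probe sets (points) with 95% limma intervals (bars), in 3 lists. Filled points passed an adjusted p under 0.05. The 7 filled points all lie right of 0, as do 34 of the 60 points in all.

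The called genes included 3 kinases, Prkca, Mapk9 and Dyrk2. Prkca, the protein kinase C isoform alpha, of the family that phosphorylates Gap43, ran from 7.07 to 8.04 (median 7.24) in learning arrays and from 6.27 to 6.95 (median 6.76) in control arrays, with no overlap. Its log2 fold change was 0.72 (SE 0.15, adjusted p = 0.0209). Mapk9 (JNK2), of the JNK family that phosphorylates stathmins, ran from 7.16 to 7.50 (median 7.45) in learning arrays and from 6.17 to 7.10 (median 6.92) in control arrays, with no overlap and a log2 difference of 0.54 (SE 0.12, adjusted p = 0.0292). Dyrk2, a kinase that primes CRMPs for Gsk3, ran from 7.02 to 7.37 (median 7.21) in learning arrays and from 6.88 to 7.13 (median 6.94) in control arrays, which overlap. Its log2 fold change was 0.21 (SE 0.05, adjusted p = 0.0440). Rac1, a small GTPase that acts downstream of semaphorin receptors, and Chn1, a Rac regulator, were the brightest of the semaphorin and CRMP list. Rac1 had a log2 difference of -0.0035 (SE 0.04, adjusted p = 0.971) and Chn1 of 0.05 (SE 0.03, adjusted p = 0.464). At its dimmer tested probe set Rac1 had 0.18 (SE 0.08, adjusted p = 0.235). Cdk5, the main kinase of CRMPs in neurons, named here after its value was seen, had a log2 difference of -0.0044 (SE 0.05, adjusted p = 0.969). Its regulatory subunit Cdk5r1, named likewise, had 0.34 (SE 0.14, adjusted p = 0.188), with 7 of 7 learning animals above the control median. Cdk5r2 was dim. Other kinases of the lists, also named after their values were seen, did not pass either. At their brightest probe sets Mapk8 (JNK1) had -0.04 (adjusted p = 0.737), Prkcb 0.02 (adjusted p = 0.855) and Pak1 -0.09 (adjusted p = 0.294). Gsk3a had 0.05 (adjusted p = 0.528), Gsk3b 0.18 (adjusted p = 0.0796), Fyn 0.23 (adjusted p = 0.0904) and Camk4 0.78 (SE 0.22, adjusted p = 0.071). The value of Camk4 was thus above that of the called Prkca. Dimmer tested probe sets had 0.16 for Prkcb (adjusted p = 0.27), 0.18 for Pak1 (adjusted p = 0.0938) and 0.05 for Fyn (adjusted p = 0.631).

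Rock2, a kinase that phosphorylates Dpysl2, rose at 1 of its 3 tested probe sets. At 1393045_at it ran from 8.34 to 8.68 (median 8.43) in learning arrays and from 7.63 to 8.24 (median 8.05) in control arrays, without overlap and with a log2 difference of 0.43 (SE 0.08, adjusted p = 0.00925). At its brightest probe set, 1372371_at, it ran from 9.37 to 9.49 (median 9.43) in learning arrays and from 9.31 to 9.48 (median 9.38) in control arrays, with a log2 difference of 0.05 (adjusted p = 0.383). The called minus the brightest probe set averaged -0.98 ± 0.10 in learning and -1.36 ± 0.18 in control arrays. At its dimmest probe set, near the cutoff, it ran from 4.44 to 5.23 (median 4.46) in learning arrays and from 3.57 to 4.45 (median 4.40) in control arrays, with a log2 difference of 0.41 (SE 0.17, adjusted p = 0.181). All 7 learning arrays lay above the control median there.

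Kif2a, a kinesin that depolymerizes microtubule ends, ran from 8.36 to 8.68 (median 8.51) in learning arrays and from 7.81 to 8.31 (median 8.09) in control arrays. The groups did not overlap, and the log2 fold change was 0.44 (SE 0.08, adjusted p = 0.00736). The tubulins themselves did not pass. Tubb2a, the brightest, had a log2 difference of 0.00075 (SE 0.04, adjusted p = 0.995), and Tubb4b had -0.06 (SE 0.03, adjusted p = 0.279), with 7 of 7 learning animals below the control median. Of the 18 tested genes of stathmin regulation and tubulins 7 had a fold change above 0 and 11 below, near the share over all genes, with a median of -0.036.

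Among growth-cone and axon growth proteins, 4 of 20 tested genes rose, and 15 had a fold change above 0 (median 0.11). Gnao1, the G protein subunit Go alpha that is abundant in growth cones, ran from 8.54 to 9.04 (median 8.73) in learning arrays and from 7.96 to 8.58 (median 8.13) in control arrays, with a log2 difference of 0.54 (SE 0.11, adjusted p = 0.0166). Robo1, a receptor for the axon repellent Slit, ran from 6.96 to 7.77 (median 7.07) in learning arrays and from 6.45 to 6.95 (median 6.63) in control arrays, with a log2 difference of 0.52 (SE 0.11, adjusted p = 0.0233). Dcc, the netrin receptor, ran from 4.56 to 5.14 (median 4.74) in learning arrays and from 4.40 to 4.57 (median 4.52) in control arrays, near the dim cutoff, and rose by 0.28 on the log2 scale (SE 0.07, adjusted p = 0.0487). Of these 3 genes the groups were apart for Robo1, by a narrow margin, and overlapped for Gnao1 and Dcc. Tmsb4x, the actin-binding thymosin and the brightest of the list, had 0.03 (adjusted p = 0.613), and Calm2, a calmodulin gene, had 0.11 (SE 0.03, adjusted p = 0.0941).

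**Figure D4:**
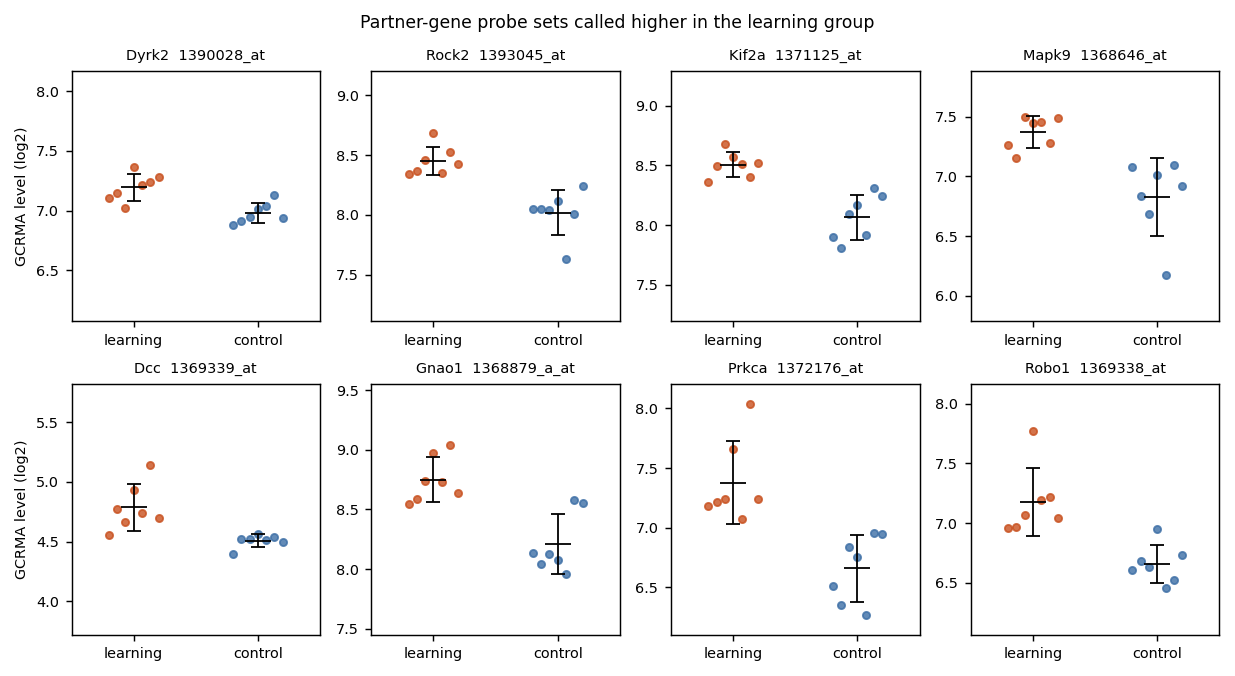
Deposited log2 level of the 8 called partner-gene probe sets in each array, learning on the left (orange) and control on the right (blue), with group mean and SD (black). All panels span the same number of log2 units. Rock2, Kif2a, Mapk9, Prkca and Robo1 show no overlap, while Dyrk2, Dcc and Gnao1 overlap slightly.

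These calls moved with measures of the arrays. For 349 genes other than the members the array holds a bright and a dim tested probe set with mean levels 2 or more log2 units apart. The dim-to-bright gap, the level of the dimmest less that of the brightest, averaged over these genes, was -3.24 ± 0.03 in learning and -3.41 ± 0.11 in control arrays (difference 0.17, two-sided exact permutation p = 0.000583, the smallest that 3432 assignments can give, adjusted p = 0.00233 over 4 array measures). The Gapdh 3'/5' ratio averaged 0.45 ± 0.05 in learning and 0.51 ± 0.06 in control arrays (log2, exact permutation p = 0.0443, adjusted p = 0.0886). With the gap in the model limma called 0 partner genes and 0 of all probe sets (3 partner genes higher and 850 probe sets at an unadjusted p under 0.05). With the Gapdh ratio in the model it called 0 partner genes and 39 of all probe sets (14 partner genes higher and 1337 probe sets unadjusted). With the Gapdh ratio the log2 fold change of Mapk9 was 0.38 (adjusted p = 0.184), and with the gap it was 0.09 for Mapk9 (adjusted p = 0.833), 0.33 for Prkca (adjusted p = 0.639), 0.26 for Gnao1 (adjusted p = 0.617), 0.14 for the called Rock2 probe set (adjusted p = 0.557) and 0.32 for Robo1 (adjusted p = 0.600). The values of Kif2a, Dyrk2 and Dcc moved less: with the gap they were 0.30 (adjusted p = 0.460), 0.21 (adjusted p = 0.508) and 0.21 (adjusted p = 0.613). With the dentate granule marker level in the model Kif2a was the only one of the 7 still called, beside the Rock2 probe set, and the others had adjusted p-values of 0.0609 (Gnao1) to 0.128 (Dyrk2). Their fold changes there were 0.49 for Gnao1, 0.65 for Prkca, 0.43 for Mapk9, 0.48 for Robo1, 0.28 for Dcc and 0.19 for Dyrk2. Without a filter on dim probe sets Kif2a and Gnao1 were called, and with the hexokinase ratio Kif2a, Mapk9 and Gnao1. The gap was taken from probe sets of the same arrays and differed between the groups, so its effect and that of the training cannot be told apart.

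Some of the partner calls lay close to the threshold and were lost when 1 array was left out. Leaving out any 1 of the 14 arrays kept the calls of Prkca, Gnao1, Kif2a and the Rock2 probe set. Robo1 missed the threshold without control replicate 1 (0.51, adjusted p = 0.0506). Mapk9 missed it without learning replicate 3, 4, 5 or 7 or control replicate 2 or 3, with adjusted p-values of 0.0515 to 0.0595. Dyrk2 stayed called only without learning replicate 1 or 3 or control replicate 6, and without each of the other 11 its adjusted p was 0.0538 to 0.0886. Dcc stayed called only without learning replicate 1, and without each of the other 13 its adjusted p was 0.0502 to 0.0994. With control replicate 5 and learning replicates 4 and 6 all left out, 3 of the 7 genes, Kif2a, Mapk9 and Robo1, were called, and so was the Rock2 probe set. The values of the others were 0.46 for Prkca (adjusted p = 0.0581), 0.39 for Gnao1 (adjusted p = 0.104), 0.18 for Dcc (adjusted p = 0.0993) and 0.18 for Dyrk2 (adjusted p = 0.162).

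Of the 10 marker lists, that of the choroid plexus was the only one to differ past the threshold. Over its 8 measured markers, 5 of them dim, the mean level ran from 3.49 to 3.80 in learning and from 3.78 to 4.36 in control arrays (difference -0.35, two-sided exact permutation p = 0.00117, adjusted p = 0.0117 over 10 lists). Of these Ttr, the thyroid hormone carrier, fell in limma (log2 fold change -2.09, SE 0.40, adjusted p = 0.0124), and Igfbp2 had a log2 difference of -0.70 (adjusted p = 0.237). Kcne2, the other tested marker, named here after its value was seen, had 0.010 (adjusted p = 0.935). The difference of the list thus lay mainly in Ttr and Igfbp2. Endothelial markers differed by -0.12 (exact permutation p = 0.0216, adjusted p = 0.108). The other lists differed by -0.14 (CA3 pyramidal neurons), -0.10 (dentate granule neurons), -0.03 (CA1 pyramidal neurons), -0.06 (interneurons), -0.015 (astrocytes), -0.09 (oligodendrocytes) and -0.09 (microglia), with adjusted p-values of 0.406 to 0.833 by the same exact permutation test. In the CA3 list the variable marker Prss35 had -0.99 (SE 1.04, adjusted p = 0.643 in limma). The other CA3 markers lay between -0.14 (Plagl1) and 0.23 (Homer3), so the value of that list rests largely on Prss35. In the interneuron list Gad2 had 0.76 (adjusted p = 0.11 in limma), and the others lay between -0.35 (Reln) and -0.03 (Vip). In the astrocyte list Slc1a2 had 0.45 (adjusted p = 0.0858 in limma), and the others lay between -0.21 (Aldh1l1) and -0.0094 (Gja1). The small values of these lists thus join opposite signs. These markers were named after their values were seen. Apart from the fits with the dentate granule marker level, the part of the marker lists in the values of the members and partner genes was not tested.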

How the data were processed

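The deposited table gives log2 expression levels for 14 arrays, 1 column each. Per the submitters' processing notes the authors obtained them with GCRMA, whose background step uses probe sequence and which then normalizes arrays and combines probes into sets. The sources used here give neither its version and settings nor a genome build, so no coordinates are printed. That the scale is log2 was read from the values. Trizol, RNeasy columns and Affymetrix RAE230A arrays were used, per the labels' protocols. Arrays have no read depth, and their number limits the precision. Batches were not tested, since no slide or scan date was used here.

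Sample titles, which call the samples biological replicates, gave groups and replicate numbers. GEO's platform annotation named 1 gene for 12783 probe sets, several for 312 (left unnamed) and none here for 2771. Entrez IDs led to current symbols in RefSeq's GRCr8 gene table for 12748. After 57 control probe sets and 6346 with a mean below the 40th percentile were set aside, 9520 entered 1 fit (limma 3.58.1, R 4.3.3: lmFit, eBayes, no covariates), with Benjamini-Hochberg adjustment across the 9520. Called means an adjusted p under 0.05, and "rose" and "fell" are kept for called features. Each partner gene was counted by its brightest probe set. Intervals are 95% limma intervals, not adjusted for the number of probe sets. Single values per array were compared by exact permutation over 3432 assignments, and correlations of deviations from the group means used 100000 permutations. The procedure was tested on simulated data. Values after ± are SD over the 7 animals of a group.

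Named were all member probe sets, called partner genes (up to 4 per list by lowest p), the 2 brightest of each list, genes called only at a dimmer probe set, and the 3 genes nearest to the member of lowest p. The 2 brightest markers of a list are named only where a result turns on them. The members and lists were chosen with earlier results of these data known. Alternatives were filters at the 20th and 60th percentile or none, quantile normalization, median centring, trended robust moderation, array weights, the replicate block, 4 covariates, 1 probe set per gene and each array left out. Leaving out 3 arrays together was added after the data were seen. Same-numbered arrays of both groups did not deviate together (correlations of -0.16 to 0.13, above 0.1 in 2 of 7 pairs), so the numbers were not taken as pairs.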

Additional observations from a re-analysis of the deposited data

Results flagged for a closer look

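Of 74 checks of 1 group of 7 arrays each, over member probe sets, named partner genes and marker lists, 6 found 1 array far from the other 6, where chance gives about 1 in 20. Dpysl3 was at 3.09 in learning replicate 3, with the nearest other learning array at 2.65, both below the dim cutoff. Dpysl4 was at 4.96 in learning replicate 5, with the nearest at 4.27. Crmp1 was at 9.70 in control replicate 1, with the nearest at 9.82. The called Rock2 probe set was at 7.63 in control replicate 5, with the nearest at 8.01. Robo1 was at 7.77 in learning replicate 4, with the nearest at 7.22. Dcc was at 4.40 in control replicate 1, with the nearest at 4.50.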

How the results depend on the processing

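Over 28 other fits 0 member probe sets were called in limma in either direction, and at an unadjusted p under 0.05 there were 1 or 2. Of 303 member values 16 changed sign. Stmn3 was 0.023 with quantile normalization, 0.0020 with median centring, 0.0073 with array weights, 0.0081 with the Gapdh and 0.0079 with the hexokinase ratio, 0.044 with the dim-to-bright gap, 0.028 without the 3 arrays that stood apart and -0.016 to 0.011 with 1 array left out. Dpysl4 was 0.031 with the dentate marker level as covariate and -0.21 to 0.0067 with 1 array left out, and the dim Gap43 probe set -0.037 to 0.0031. The gap between the Stmn2 probe sets was 0.0037 with quantile normalization and -0.041 to 0.031 with 1 array left out. Rac1 was 0.0091 with the dentate level and -0.029 to 0.013 with 1 array left out, and Tubb2a -0.011 with quantile normalization, -0.0070 with the dentate level and -0.023 to 0.015 with 1 array left out. The 1.25-fold limit held for 8 of 11 member probe sets with the Gapdh ratio or the dim-to-bright gap in the model, and for 9 in the other fits that tested all 11.

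The count of partner genes that rose, 7, was 2 without a filter on dim probe sets, 0 with the Gapdh ratio, 3 with the hexokinase ratio, 1 with the dentate level, 0 with the dim-to-bright gap (at an unadjusted p under 0.05, 14 with the Gapdh ratio and 3 with the gap), 3 without the 3 arrays and 4 to 7 with 1 array left out. The cause was not tested. Without a filter more probe sets enter both the adjustment and the variance moderation, and the parts of these were not separated. With the replicate block 8 rose and 1 fell, member calls stayed at 0, and Mapk9 missed the threshold (adjusted p = 0.0581). Calm2 passed it with trended and robust moderation (adjusted p = 0.0387). Same-numbered arrays did not deviate together, and 1 of 7 learning arrays correlated best with its own number. Of all probe sets, 158 were called without a filter, 177 with the hexokinase ratio, 102 with the dentate level, 105 without the 3 arrays and 163 to 352 with 1 array left out, against 319. The dim level of Dpysl3, Dpysl4, Dpysl5 and the second Gap43 probe set and the number of arrays limit what can be said of them.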

Other observations

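The control animals were more spread than the learning animals at most member probe sets. The SD was larger among control arrays at 9 of the 11 tested member probe sets, and at 55.1% of all tested probe sets. Without control replicate 5 it was larger at 8 of 11 and at 49.7% of all. The highest of the 14 arrays was a control array at 9 of the 11 member probe sets, and so was the lowest at 9 of 11, where control arrays were highest at 57.4% and lowest at 47.4% of all tested probe sets. Control replicate 1 was the highest array for Stmn1, Stmn4 and Dpysl4 and the lowest for Crmp1, Dpysl2 and the dim Gap43 probe set. Control replicate 5 was the highest for Stmn3, Dpysl2 and the bright Gap43 probe set. These values were looked at after the data were seen and carry no test.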
